A study of Bos taurus with 24 samples.

Results

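The genes described here are the interferon-stimulated genes and the genes of antigen presentation in the subcutaneous adipose tissue of crossbred beef cows. They were taken by name: 35 listed genes and all 15 genes whose symbol begins with BOLA-, the prefix of the bovine major histocompatibility complex (MHC), which gives 50 genes. Of these, 46 had a transcript cluster (the set of probes summarised to 1 value) carrying that single symbol, among 18444 genes with a single symbol on the array. They comprised 21 interferon-stimulated genes, 9 genes of class I presentation and 16 genes of class II presentation. IFIT1, IFI44, IFI44L and TAP2 had no cluster of their own, and DDX58 was measured under its current symbol RIGI.

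Interferons are secreted when cells sense viral nucleic acid, and they act through STAT and IRF transcription factors to raise a large set of antiviral genes, many of which are also transcribed at a low level in resting tissue. Class I molecules are made by nearly all nucleated cells and display peptides cut by the proteasome and carried into the endoplasmic reticulum, whereas class II molecules are made mainly by macrophages, dendritic cells and B cells, can also be made by adipocytes, and display peptides from material taken up by the cell. Cattle carry the classical DR and DQ class II genes, with several DQ genes whose number and alleles differ between haplotypes, and the DY genes found in ruminants.

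Tissue was biopsied from 12 mature cows, 6 with the greatest and 6 with the least body weight gain during ad libitum feeding, chosen from a larger herd. Each cow was sampled on 2 occasions, on day 105 of feed restriction and on day 49 of the ad libitum feeding that followed, and each sample was hybridised to 1 Affymetrix Bovine 1.1ST array, which gave 4 groups of 6 arrays. All cows went through the restriction first. The restriction biopsy came from the left side and the ad libitum biopsy from the right side, so that diet, side, day and order of sampling cannot be told apart. The paper also reports a lower average RNA integrity number (RIN) at restriction, so that RNA quality differed along with diet. Cows chosen for greater gain also ate more, and gain and intake cannot be told apart either. Below, H1 to H6 are the high gain cows and L1 to L6 the low gain cows, numbered in no particular order.

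Levels are log2 signal minus the median of the same array, so that 0 is the level of the middle cluster of an array and 1 is a doubling. This centring was needed because array medians were 8.26 to 8.34 at restriction and 7.83 to 7.94 at ad libitum feeding. After centring, the brightest 1250 clusters still had a median difference of 0.47 in high gain cows and 0.56 in low gain cows, against -0.04 and -0.02 for the 5000 clusters in the middle, and values under a brightness-dependent scaling (cyclic loess) are therefore also given where they bear on a result. The 8 adipocyte markers had a mean level of 8.80 to 10.20 over the 24 arrays. The tissue was bulk, so that fewer cells of a type and less RNA per cell cannot be told apart.

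The first question was which of these genes differed between restriction and ad libitum feeding in the same cow. In high gain cows, 8 of the 46 genes rose (17.4%) and 9 fell (19.6%) at an adjusted p under 0.05 (limma with cow as a block, Benjamini-Hochberg over 24997 clusters), beside 18.8% of all clusters higher and 16.5% lower. In low gain cows, 10 rose (21.7%) and 3 fell (6.52%), beside 18.6% and 13.1% of all clusters. As 1 set, the genes were therefore called about as often as the rest of the array on centred levels. A smaller share fell in low gain cows, which rests on 3 genes. Their median difference was 0.07 in high gain and 0.17 in low gain cows against -0.01 and 0.02 for all clusters. Under the brightness-dependent scaling, 4 of the 46 genes rose and 9 fell in high gain cows, beside 17.6% and 17.1% of all clusters. In low gain cows 8 of the 46 rose and 4 fell, beside 15.6% and 14.7%. With this scaling, a smaller share of the genes than of all clusters rose in high gain cows and fell in low gain cows. None of these shortfalls was tested. The counts by class that follow are on centred levels, for high and low gain cows respectively. They stand beside 18.8% and 18.6% of all clusters higher and 16.5% and 13.1% lower. Of 16 class II genes, 5 and 6 rose (31.2% and 37.5%) and 2 and 1 fell (12.5% and 6.25%). Under the brightness-dependent scaling, BOLA-DRB3 and CD74 lost their high gain calls and BOLA-DQB1 its low gain call. Of 21 interferon-stimulated genes, 2 and 1 rose (9.52% and 4.76%) and 5 and 2 fell (23.8% and 9.52%), and of 9 class I genes, 1 and 3 rose (11.1% and 33.3%) and 2 and 0 fell (22.2% and 0.00%). In all, on centred levels, 10 genes were called in the same direction in both gain groups, 7 higher and 3 lower, and none in opposite directions.

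**Figure D1:**
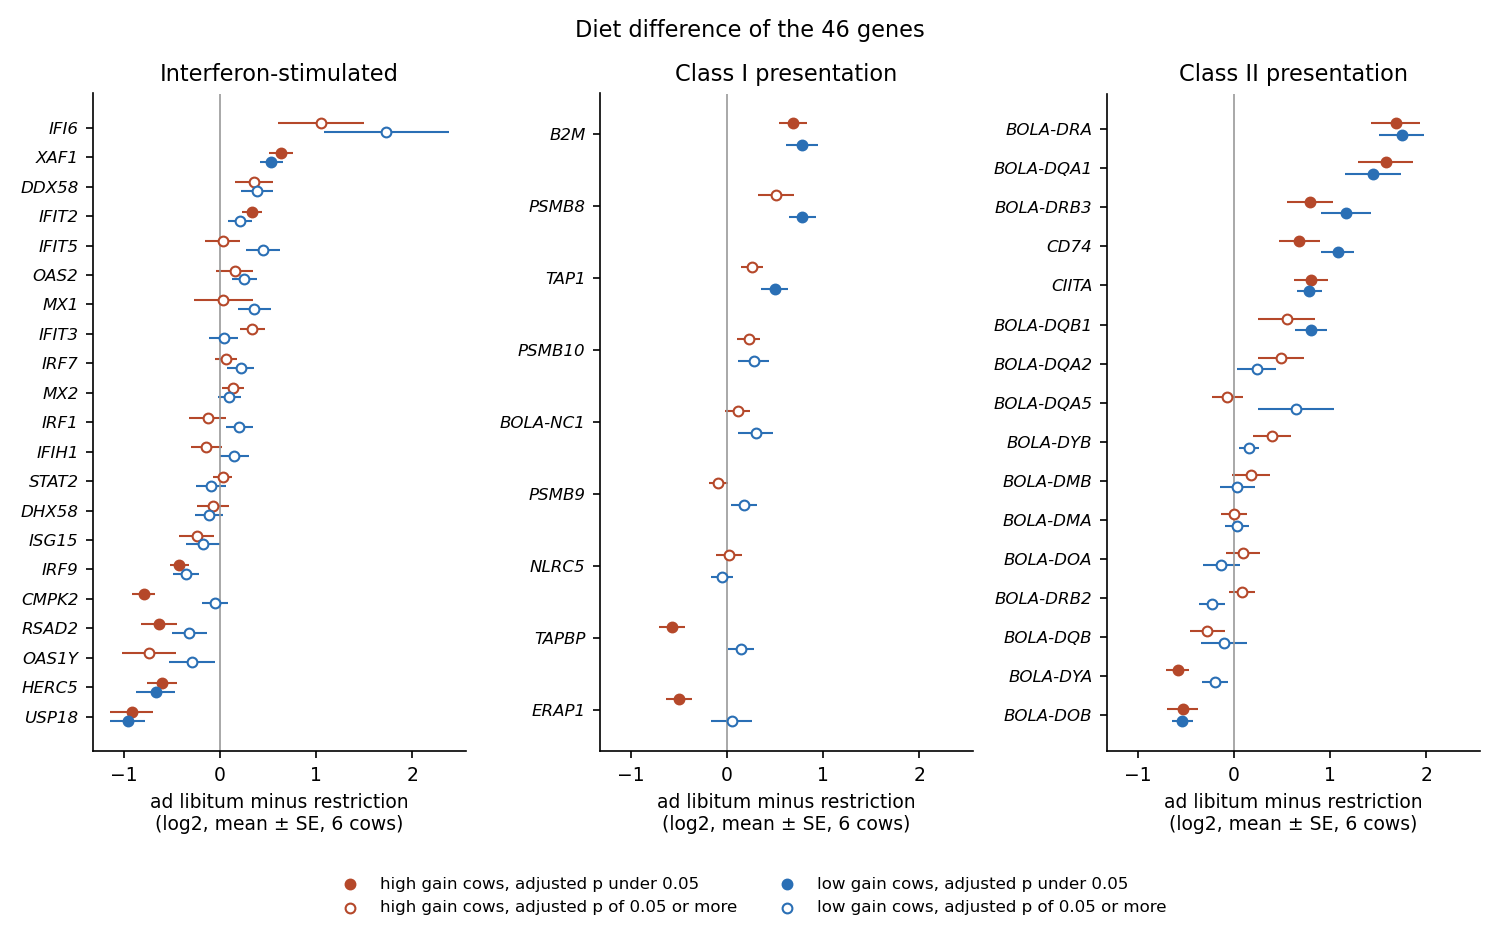
Mean difference of ad libitum feeding minus restriction (log2, x axis) with its standard error for each of the 46 genes (y axis) in 6 high gain cows (red) and 6 low gain cows (blue), by class; filled circles passed an adjusted p of 0.05. BOLA-DRA and BOLA-DQA1 lie farthest to the right among class II genes, and USP18 farthest to the left among interferon-stimulated genes, in both gain groups.

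BOLA-DRA, BOLA-DRB3, BOLA-DQA1, CD74 and CIITA rose in both gain groups. BOLA-DRA, the alpha chain shared by all DR molecules, lay at the 98.6th percentile of all clusters by signal, which places it on the array and is no measure of transcript amount. Its lowest, median and highest levels were 6.62, 7.17 and 7.75 at restriction and 8.37, 8.60 and 9.76 at ad libitum feeding in high gain cows. The low gain cows gave 6.59, 7.05 and 7.47 at restriction and 7.67, 8.96 and 9.56 at ad libitum feeding. The groups did not overlap in either gain class, and the level was higher at ad libitum feeding in 12 of 12 cows. The difference was 1.68 ± 0.26 (SE, n = 6 cows, 3.21-fold, limma adjusted p = 0.00162) in high gain cows. It was 1.74 ± 0.23 (SE, n = 6, 3.35-fold, limma adjusted p = 0.000972) in low gain cows. Under the brightness-dependent scaling the differences were 1.19 and 1.18 and both passed the test (limma adjusted p = 0.00838 and 0.0054). Across the array, 9.38% of clusters in high gain and 8.99% in low gain cows had groups that did not overlap with the higher level at ad libitum feeding, and 7.00% and 6.05% with the lower. Among the 46 genes these counts were 5 and 4 higher and 1 and 1 lower.

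BOLA-DRB3, the polymorphic beta chain that pairs with BOLA-DRA, ranged from 4.38 to 5.82 (median 5.43) at restriction and from 5.33 to 6.66 (median 5.98) at ad libitum feeding in high gain cows. Among low gain cows it ranged from 4.42 to 5.40 (median 5.17) and from 5.24 to 7.08 (median 6.38). The groups overlapped in both, and 6 of 6 high gain and 5 of 6 low gain cows were higher at ad libitum feeding. The difference was 0.79 ± 0.24 (SE, limma adjusted p = 0.0307) in high gain cows, which did not pass under the brightness-dependent scaling (0.49, limma adjusted p = 0.16) or on leaving out any 1 of 3 cows. In low gain cows it was 1.17 ± 0.26 (SE, limma adjusted p = 0.00935), and 0.76 under that scaling (limma adjusted p = 0.0442).

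BOLA-DQA1, the alpha chain of a DQ molecule, ranged from 3.48 to 5.86 (median 4.06) at restriction and from 4.75 to 7.18 (median 5.73) at ad libitum feeding in high gain cows. Every high gain cow was higher at ad libitum feeding, by 1.58 ± 0.29 (SE, n = 6, 2.99-fold, limma adjusted p = 0.00363). In low gain cows, 5 of 6 were higher and the difference was 1.45 ± 0.29 (SE, n = 6, 2.73-fold, limma adjusted p = 0.00634). The exception was cow L3, which read 1.1 and 0.94, far below the 5 others at 4.17 to 5.28 and 5.21 to 7.49. Without L3 the difference was 1.77. Under the brightness-dependent scaling the differences were 1.35 in high gain and 1.1 in low gain cows (limma adjusted p = 0.00776 and 0.0189). Without the cow as a block, the low gain call was lost (limma adjusted p = 0.281), whereas the high gain call held (limma adjusted p = 0.0192). BOLA-DQB1, a DQ beta chain, showed the same dependence on pairing: it rose by 0.80 ± 0.17 (SE, limma adjusted p = 0.00703) in 6 of 6 low gain cows with the block, and its adjusted p was 0.668 without it. In high gain cows its difference was 0.55 (limma adjusted p = 0.177), and under the brightness-dependent scaling neither gain group passed (0.20 and 0.36, limma adjusted p = 0.621 and 0.103).

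CD74 encodes the invariant chain, which fills the groove of new class II molecules until peptide is loaded. Its levels were 6.10, 6.80 and 7.18 (lowest, median, highest) at restriction and 6.52, 7.43 and 8.17 at ad libitum feeding in high gain cows. The low gain cows gave 6.26, 6.54 and 7.07 at restriction and 6.79, 7.79 and 8.08 at ad libitum feeding. The lowest ad libitum value in low gain cows belonged to L3, and the groups overlapped in both gain classes. CD74 rose by 1.08 ± 0.18 (SE, limma adjusted p = 0.00242) in 6 of 6 low gain cows. In high gain cows the difference was 0.68 ± 0.21 (SE, limma adjusted p = 0.0349) in 5 of 6 cows, and under the brightness-dependent scaling it was 0.26 (limma adjusted p = 0.414), so that this call rests on the scaling, and it was also lost without the block and on leaving out any 1 of 3 cows. The low gain difference under that scaling was 0.57 (limma adjusted p = 0.0283).

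CIITA, the transactivator without which class II genes are not transcribed, was measured near the array median. It ranged from -1.21 to -0.44 (median -0.68) at restriction and from -0.26 to 0.51 (median -0.03) at ad libitum feeding in high gain cows. Among low gain cows it ranged from -0.96 to -0.49 (median -0.83) and from -0.21 to 0.31 (median -0.07). All 12 cows were higher at ad libitum feeding and the groups did not overlap in either gain class. The differences were 0.80 ± 0.18 (SE, limma adjusted p = 0.00928) and 0.78 ± 0.13 (SE, limma adjusted p = 0.00252), and they were 0.85 and 0.83 under the brightness-dependent scaling.

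Not all class II genes moved this way. BOLA-DOB, the beta chain of the DO molecule that restrains peptide loading by DM, fell. Its levels were -0.49, -0.41 and -0.10 (lowest, median, highest) at restriction and -1.21, -0.99 and -0.14 at ad libitum feeding in high gain cows, where H5 alone was higher at ad libitum feeding. The low gain cows gave -0.48, -0.40 and -0.04 at restriction and -1.20, -0.85 and -0.65 at ad libitum feeding, with no overlap. The falls were -0.53 ± 0.16 (SE, limma adjusted p = 0.0316) and -0.54 ± 0.11 (SE, limma adjusted p = 0.00695), and the high gain call was lost on leaving out any 1 of 5 cows (adjusted p up to 0.0889). BOLA-DYA, an alpha chain of the ruminant DY molecule, fell in high gain cows from -1.34 to -1.04 (median -1.13) at restriction to -1.93 to -1.42 (median -1.76) at ad libitum feeding, without overlap, by -0.59 ± 0.12 (SE, limma adjusted p = 0.00548). Its difference in low gain cows was -0.20 (limma adjusted p = 0.301). BOLA-DYA was dim, at the 18.4th percentile of all clusters. The remaining class II genes passed the test in neither gain group: BOLA-DMA and BOLA-DMB, which encode the DM molecule that loads peptide, BOLA-DOA, BOLA-DQA2, BOLA-DQA5, BOLA-DQB, BOLA-DRB2 and BOLA-DYB. For BOLA-DMA the difference was 0.00 in high gain cows (95% interval -0.30 to 0.30) and 0.03 in low gain cows (-0.24 to 0.31).

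**Figure D2:**
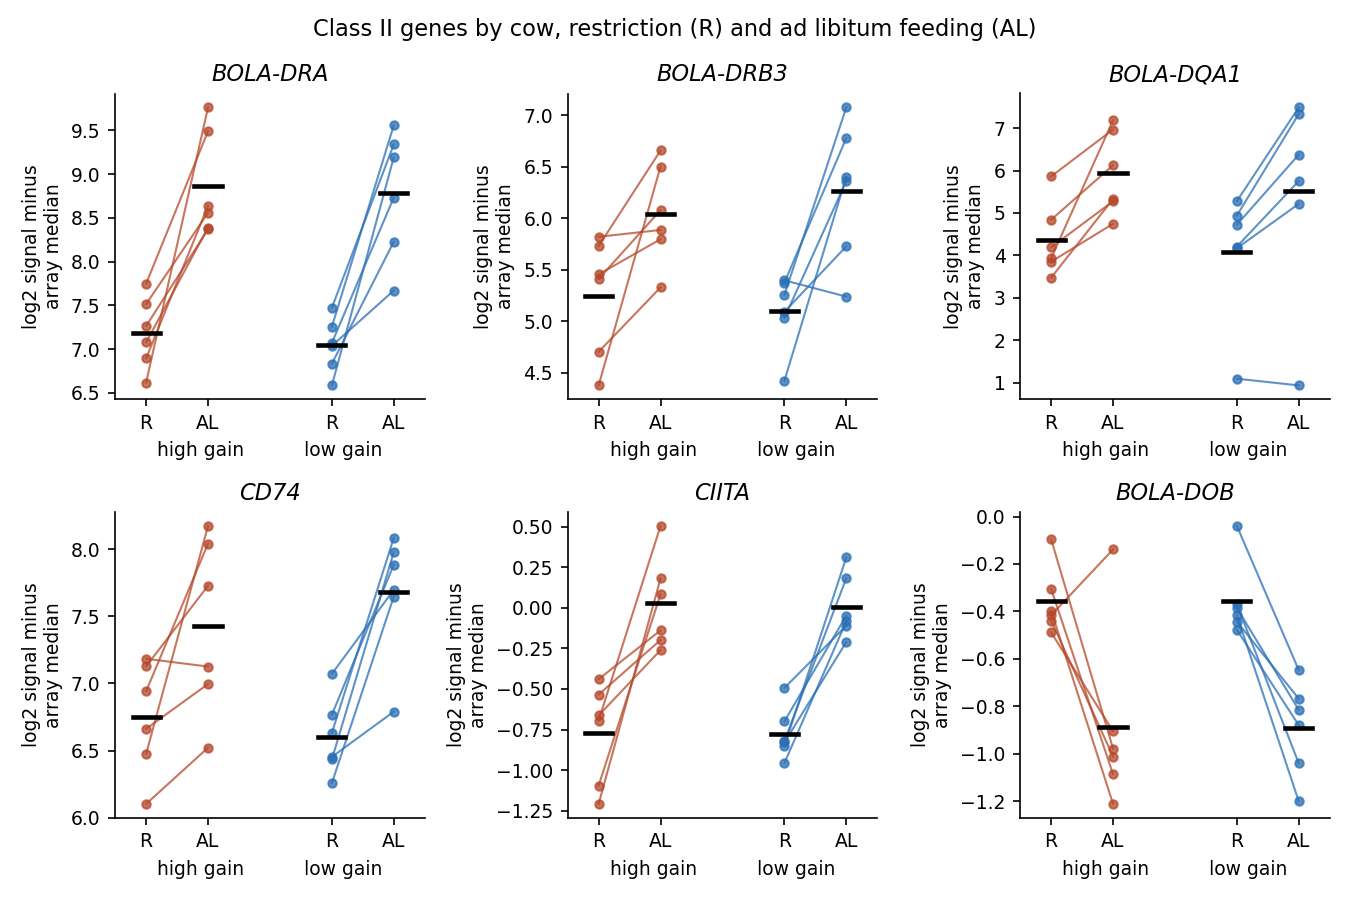
Level of 6 class II genes (log2 signal minus array median, y axis) in each cow at restriction (R) and ad libitum feeding (AL); lines join the 2 biopsies of a cow, red for high gain and blue for low gain, and black bars are group means of 6 cows. BOLA-DRA and CIITA were higher at ad libitum feeding in every cow without overlap between the groups, BOLA-DOB was lower in 11 of 12 cows, and L3 lies apart for BOLA-DQA1.

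The cow-to-cow spread of the DQ genes was among the largest on the array. BOLA-DQB1 had an SD of 2.41 among the 12 cow means, which only 2 of 24997 clusters exceeded (0.012% were at or above it), against an SD of 0.72 among the changes from restriction to ad libitum feeding. H4 read 2.45 and 1.92 at restriction and ad libitum feeding, L1 read 2.47 and 3.19, and L3 read 1.95 and 2.04, while the 9 other cows read from 6.09 to 9.91. A cow that was low in 1 biopsy was low in the other. BOLA-DQA1 had an SD of 1.44 among cow means (0.096% of clusters at or above it), which rests on L3. The other 11 cows lay between 3.48 and 7.49.

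BOLA-DQB and BOLA-DQA5, which are neighbours in the RefSeq gene order, stood higher in the same cows. In H1, L2, L4 and L5, BOLA-DQB read from 1.03 to 1.78, whereas the 8 other cows read from -1.0 to 0.25. In those 4 cows BOLA-DQA5 read from -1.45 to 2.14, whereas the 8 others read from -2.70 to -1.72. Both biopsies of a cow fell on the same side for both genes. Within the 4 cows, BOLA-DQA5 went from -0.32 to 1.35 in L2 and from -0.66 to 2.14 in L5, and was nearly level in L4 (-0.39 and -0.44). The cows were of mixed breed, the DQ genes are close in sequence, and the genotype of these cows was not analysed here, so that the part of allele, gene number or shared probes in these levels was not tested.

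**Figure D3:**
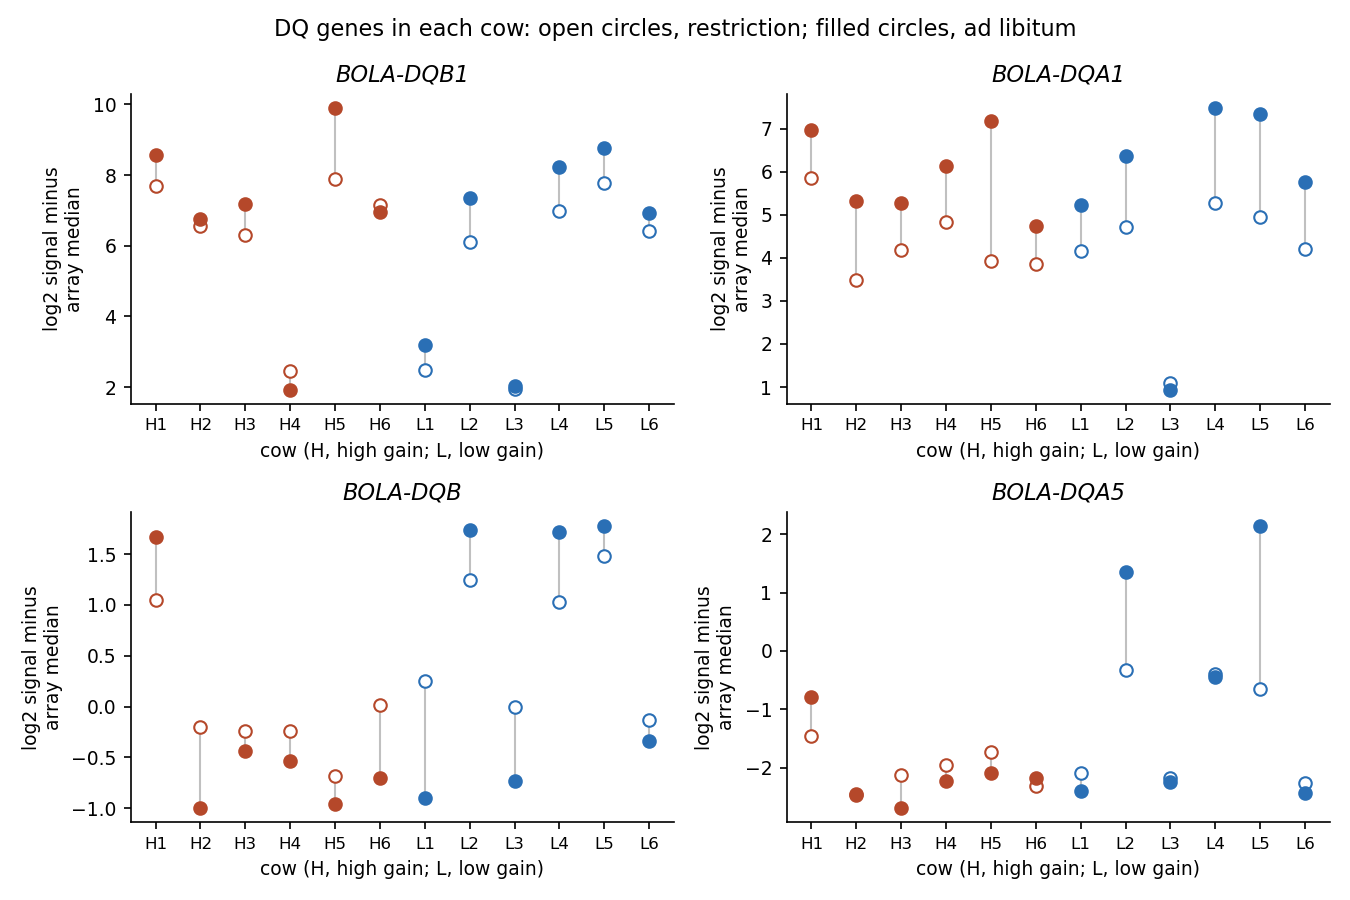
Level of 4 DQ genes (log2 signal minus array median, y axis) in each of the 12 cows (x axis) at restriction (open circles) and ad libitum feeding (filled circles), red for high gain and blue for low gain. BOLA-DQB1 was low in H4, L1 and L3 in both biopsies, and BOLA-DQA1 in L3 alone. BOLA-DQB and BOLA-DQA5 stood higher in H1, L2, L4 and L5 than in the other cows, although BOLA-DQA5 stayed below 0 in H1 and L4.

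Class II genes are made by few cell types, so that markers of those cells were read beside them. Of 13 macrophage markers, 3 rose in high gain cows (23.1%, beside 18.8% of all clusters) and 4 in low gain cows (30.8%, beside 18.6%), and none fell; their median difference was -0.03 and 0.16. C1QA, a chain of complement C1q secreted by macrophages, rose by 0.98 ± 0.24 (SE, limma adjusted p = 0.0128) and 1.27 ± 0.19 (SE, limma adjusted p = 0.00157). C1QB and C1QC also rose in both gain groups, whereas CD163, a scavenger receptor of macrophages, had differences of -0.48 and 0.27 (limma adjusted p = 0.152 and 0.488). The mean level of the 13 markers ranged from 0.99 to 1.84 at restriction and from 0.90 to 2.70 at ad libitum feeding in high gain cows, and from 0.40 to 1.13 and from 0.50 to 1.41 in low gain cows. For each cow, the marker level at restriction, that at ad libitum feeding and the change of the mean of the 16 class II genes follow in that order. They were 1.65, 0.90 and 0.33 in H1, 1.23, 0.93 and 0.19 in H2, and 1.55, 0.92 and 0.08 in H3. H4 gave 1.24, 1.33 and 0.47, H5 1.84, 2.70 and 0.90, and H6 0.99, 2.02 and 0.23. Values were 0.40, 0.50 and 0.24 in L1, 0.73, 1.39 and 0.70 in L2, and 0.78, 1.23 and -0.11 in L3. L4 gave 0.40, 0.87 and 0.62, L5 1.06, 1.05 and 0.88, and L6 1.13, 1.41 and 0.28. Of 8 dendritic cell markers, 4 fell in high gain (beside 16.5% of all clusters) and 3 in low gain cows (beside 13.1%) and none rose. Of 9 T cell and 6 B cell markers, none were called in high gain cows, and 3 and 2 fell in low gain cows (33.3% and 33.3%, beside 13.1%). Most of these markers were dim. In each of the 4 groups, 1 of the 8 dendritic cell and 1 of the 9 T cell markers had a mean above the array median. The markers of the main tissue cells moved as well. Of 7 fibroblast markers, 6 rose in each gain group (85.7%, beside 18.8% and 18.6% of all clusters), with a median difference of 1.74 and 1.64. Of 8 adipocyte markers, 5 rose and 1 fell in high gain cows and 6 rose in low gain cows (median difference 0.51 and 0.53), although under the brightness-dependent scaling FABP4, a fatty acid carrier of adipocytes, turned from 0.46 to -0.35 and from 0.48 to -0.35. The 7 endothelial markers had median differences of -0.54 and 0.49. The part of cell composition in the class II levels was not tested.

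In class I presentation, 1 gene rose and 2 fell in high gain cows, beside 18.8% and 16.5% of all clusters. In low gain cows 3 rose and none fell, beside 18.6% and 13.1%, and B2M was called in both gain groups. B2M, the light chain of every class I molecule, stood at the 99.6th percentile of all clusters. It ranged from 9.33 to 9.87 (median 9.58) at restriction and from 9.93 to 11.05 (median 10.26) at ad libitum feeding in high gain cows. Among low gain cows it ranged from 9.09 to 9.98 (median 9.47) and from 9.80 to 10.93 (median 10.24). It was higher at ad libitum feeding in 12 of 12 cows, by 0.69 ± 0.15 (SE, limma adjusted p = 0.00803) and 0.78 ± 0.17 (SE, limma adjusted p = 0.00806). Under the brightness-dependent scaling the differences were 0.04 and 0.08 (limma adjusted p = 0.862 and 0.724), beside the median difference of 0.47 and 0.56 for the brightest 1250 clusters. BOLA-NC1, the nonclassical heavy chain and the single class I heavy chain that the names took in, had differences of 0.11 and 0.30 (limma adjusted p = 0.551 and 0.235).

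PSMB8, a catalytic subunit of the immunoproteasome, ranged from 0.89 to 1.53 (median 1.19) at restriction and from 1.81 to 2.18 (median 1.99) at ad libitum feeding in low gain cows. The groups did not overlap, and the rise was 0.78 ± 0.14 (SE, limma adjusted p = 0.00339). In high gain cows 6 of 6 were also higher, with a difference of 0.51 ± 0.19 (SE, limma adjusted p = 0.0625). TAP1, a subunit of the peptide transporter, rose by 0.50 ± 0.14 (SE, limma adjusted p = 0.0249) in 5 of 6 low gain cows, a call lost on leaving out any 1 of 4 cows (adjusted p up to 0.0726), and its difference in high gain cows was 0.26 (limma adjusted p = 0.11). The other immunoproteasome subunits, PSMB9 and PSMB10, and NLRC5, the transactivator of class I genes, passed the test in neither gain group. In high and low gain cows, the differences were -0.09 and 0.18 for PSMB9 and 0.23 and 0.28 for PSMB10.

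TAPBP and ERAP1 act late in class I loading. TAPBP encodes tapasin, which bridges the transporter and the empty class I molecule. Its levels were 4.53, 5.09 and 5.49 (lowest, median, highest) at restriction and 4.09, 4.64 and 4.75 at ad libitum feeding in high gain cows, and 6 of 6 cows were lower at ad libitum feeding. The fall was -0.57 ± 0.14 (SE, limma adjusted p = 0.0133). Low gain levels were 4.71, 4.98 and 5.29 at restriction and 4.88, 5.18 and 5.37 at ad libitum feeding, a difference of 0.15 (95% interval -0.15 to 0.46, limma adjusted p = 0.421). Under the brightness-dependent scaling the high gain fall was -0.80 (limma adjusted p = 0.00311) and the low gain difference turned to -0.19 (limma adjusted p = 0.292). ERAP1, the aminopeptidase that trims peptides in the endoplasmic reticulum, fell by -0.50 ± 0.14 (SE, limma adjusted p = 0.0208) in 6 of 6 high gain cows, a call lost on leaving out any 1 of 3 cows (adjusted p up to 0.0633), and its difference in low gain cows was 0.05 (limma adjusted p = 0.879).

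Among interferon-stimulated genes, the sensors came first in the order of the pathway and none was called. DDX58 and IFIH1 encode the RNA helicases RIG-I and MDA5, and DHX58 encodes LGP2, which regulates both. The differences of DDX58 were 0.35 (95% interval -0.09 to 0.79) and 0.39 (0.01 to 0.76), with limma adjusted p = 0.185 and 0.103. Those of IFIH1 were -0.14 and 0.15, and those of DHX58 were -0.07 and -0.11. Of the transcription factors, STAT2, IRF1 and IRF7 were not called either, with differences between -0.13 and 0.22. IRF9, a DNA-binding partner of STAT2 in interferon signalling, ranged from 1.21 to 1.88 (median 1.45) at restriction and from 0.81 to 1.32 (median 1.09) at ad libitum feeding in high gain cows and fell by -0.42 ± 0.10 (SE, 6 of 6 cows, limma adjusted p = 0.0126). Its difference in low gain cows was -0.36 ± 0.13 (SE, 5 of 6 cows lower, limma adjusted p = 0.0719), and -0.42 under the brightness-dependent scaling (limma adjusted p = 0.0402).

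Of the 3 genes of the ISG15 system, 2 fell in both gain groups, beside 16.5% and 13.1% of all clusters. ISG15 is a ubiquitin-like protein, HERC5 is the ligase that attaches it and USP18 is the protease that removes it and that also restrains interferon receptor signalling. USP18 ranged from -0.36 to 1.11 (median 0.81) at restriction and from -0.69 to 0.22 (median -0.44) at ad libitum feeding in high gain cows, and from -0.24 to 1.39 (median 0.94) and from -1.03 to 0.44 (median -0.11) in low gain cows. It was lower at ad libitum feeding in 12 of 12 cows, although the groups overlapped. The falls were -0.92 ± 0.22 (SE, limma adjusted p = 0.0135) and -0.96 ± 0.18 (SE, limma adjusted p = 0.00495).

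HERC5 ranged from 0.59 to 1.95 (median 1.18) at restriction and from 0.32 to 1.07 (median 0.50) at ad libitum feeding in high gain cows, and from 0.60 to 1.70 (median 1.12) and from -0.24 to 0.82 (median 0.48) in low gain cows. It was lower in 11 of 12 cows. The falls were -0.60 ± 0.15 (SE, limma adjusted p = 0.0151) and -0.67 ± 0.20 (SE, limma adjusted p = 0.034), and the low gain call was lost on leaving out any 1 of 5 cows (adjusted p up to 0.0951). ISG15 itself did not pass the test, with differences of -0.24 and -0.17 (limma adjusted p = 0.33 and 0.488). Its 95% intervals, -0.66 to 0.17 and -0.58 to 0.23, overlapped those of USP18, -1.43 to -0.41 and -1.37 to -0.55. A difference between the 2 genes was not tested.

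Of 11 antiviral effectors, 2 rose and 2 fell in high gain cows, beside 18.8% and 16.5% of all clusters. In low gain cows 1 rose and none fell, beside 18.6% and 13.1%. CMPK2, a mitochondrial nucleotide kinase, and RSAD2, which encodes viperin, are adjacent in the RefSeq gene order. CMPK2 levels were 2.13, 2.88 and 3.18 (lowest, median, highest) at restriction and 1.75, 1.82 and 2.37 at ad libitum feeding in high gain cows, and it fell by -0.79 ± 0.12 (SE, 6 of 6 cows, limma adjusted p = 0.00179). The low gain cows gave 1.41, 2.22 and 2.60 at restriction and 1.94, 1.99 and 2.46 at ad libitum feeding, a difference of -0.05 (95% interval -0.35 to 0.25, limma adjusted p = 0.802).

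RSAD2 levels were 1.49, 2.96 and 3.73 at restriction and 1.58, 2.17 and 2.88 at ad libitum feeding in high gain cows, where it fell by -0.64 ± 0.19 (SE, 5 of 6 cows, limma adjusted p = 0.0286). This call was lost without the cow as a block (limma adjusted p = 0.152) and on leaving out any 1 of 4 cows. Its difference in low gain cows was -0.32 (limma adjusted p = 0.212).

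XAF1, an interferon-induced gene linked to apoptosis, was the antiviral gene that rose in both gain groups. It ranged from -1.04 to -0.47 (median -0.77) at restriction and from -0.27 to 0.09 (median -0.17) at ad libitum feeding in high gain cows, and from -0.99 to -0.55 (median -0.67) and from -0.36 to -0.09 (median -0.17) in low gain cows. The groups did not overlap in either, and the rises were 0.64 ± 0.13 (SE, limma adjusted p = 0.00598) and 0.53 ± 0.12 (SE, limma adjusted p = 0.00872). IFIT2, a binder of viral RNA, lay at the 2.36th percentile of all clusters. It was called higher in high gain cows (0.33 ± 0.10 SE, limma adjusted p = 0.033), but not under the brightness-dependent scaling (0.28, limma adjusted p = 0.0659). On the deposited scale, which carries the shift of the array medians, the difference was -0.08. The call was also lost on leaving out any 1 of 5 cows.

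IFI6, a small interferon-induced membrane protein, varied from cow to cow in its change. The changes ran from -0.15 to 3.51 in high gain cows and from -0.76 to 5.49 in low gain cows. H2 went from 1.98 to 5.48 and L4 from 2.70 to 8.19, whereas L1 went from 4.11 to 3.36. With this spread the mean differences of 1.05 ± 0.45 and 1.73 ± 0.65 (SE) did not pass the test (limma adjusted p = 0.0979 and 0.0707), nor did those of 0.87 and 1.43 under the brightness-dependent scaling (limma adjusted p = 0.155 and 0.115). MX1 and MX2, dynamin-like antiviral GTPases, OAS2 and OAS1Y, synthases of the 2-5A messenger, and IFIT3 and IFIT5 were not called in either gain group. In high and low gain cows, the differences were 0.03 and 0.45 for IFIT5 (limma adjusted p = 0.919 and 0.0833). For MX1 they were 0.04 and 0.36 (limma adjusted p = 0.94 and 0.145). OAS2 and OAS1Y overlap in the RefSeq annotation, and whether their probes are shared was not tested.

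**Figure D4:**
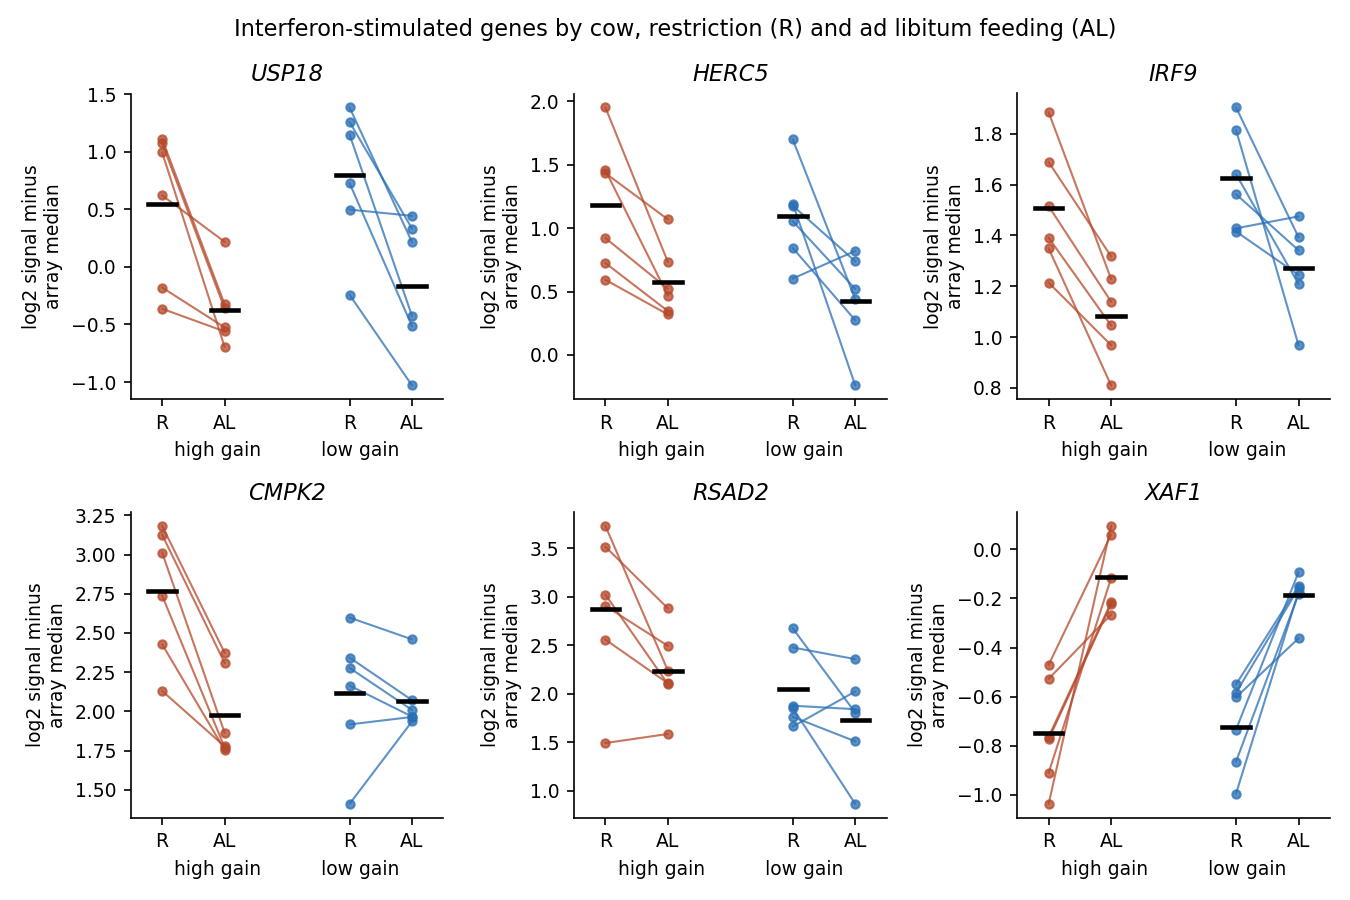
Level of 6 interferon-stimulated genes (log2 signal minus array median, y axis) in each cow at restriction (R) and ad libitum feeding (AL); lines join the 2 biopsies of a cow, red for high gain and blue for low gain, and black bars are group means of 6 cows. USP18 was lower at ad libitum feeding in all 12 cows, XAF1 was higher in all 12, and CMPK2 was lower in all 6 high gain cows but in 4 of 6 low gain cows.

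To set the classes side by side, the levels of a class were averaged on each array, which describes these arrays and was not tested. From restriction to ad libitum feeding, the mean of the 21 interferon-stimulated genes changed by -0.07 ± 0.30 (SD, n = 6) in high gain and 0.08 ± 0.24 in low gain cows. The mean of the 9 class I genes changed by 0.07 ± 0.22 and 0.33 ± 0.29, and that of the 16 class II genes by 0.37 ± 0.29 and 0.43 ± 0.36. These class means depend on the scaling. Under the brightness-dependent scaling the class I mean changed by -0.02 and 0.17, the class II mean by 0.28 and 0.32 and the interferon-stimulated mean by -0.08 and 0.03. On the deposited scale the class I mean changed by -0.34 and -0.12, the class II mean by -0.05 and -0.02 and the interferon-stimulated mean by -0.49 and -0.38. Centred class II means were higher at ad libitum feeding in 6 of 6 high gain and 5 of 6 low gain cows, L3 being the exception, whereas interferon-stimulated means were higher in 2 and 3 cows. Within a cow, the change of the interferon-stimulated mean minus that of the class II mean was -0.44 ± 0.35 and -0.36 ± 0.46 (SD, n = 6), and it was negative in 5 of 6 cows of each gain group. H2 and L3 went the other way. These differences within an array are unmoved by centring, and under the brightness-dependent scaling they were -0.36 and -0.30. Against class I, the same contrast was -0.15 ± 0.34 and -0.25 ± 0.25, negative in 4 and 5 of 6 cows, and it was -0.05 and -0.15 under the brightness-dependent scaling.

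**Figure D5:**
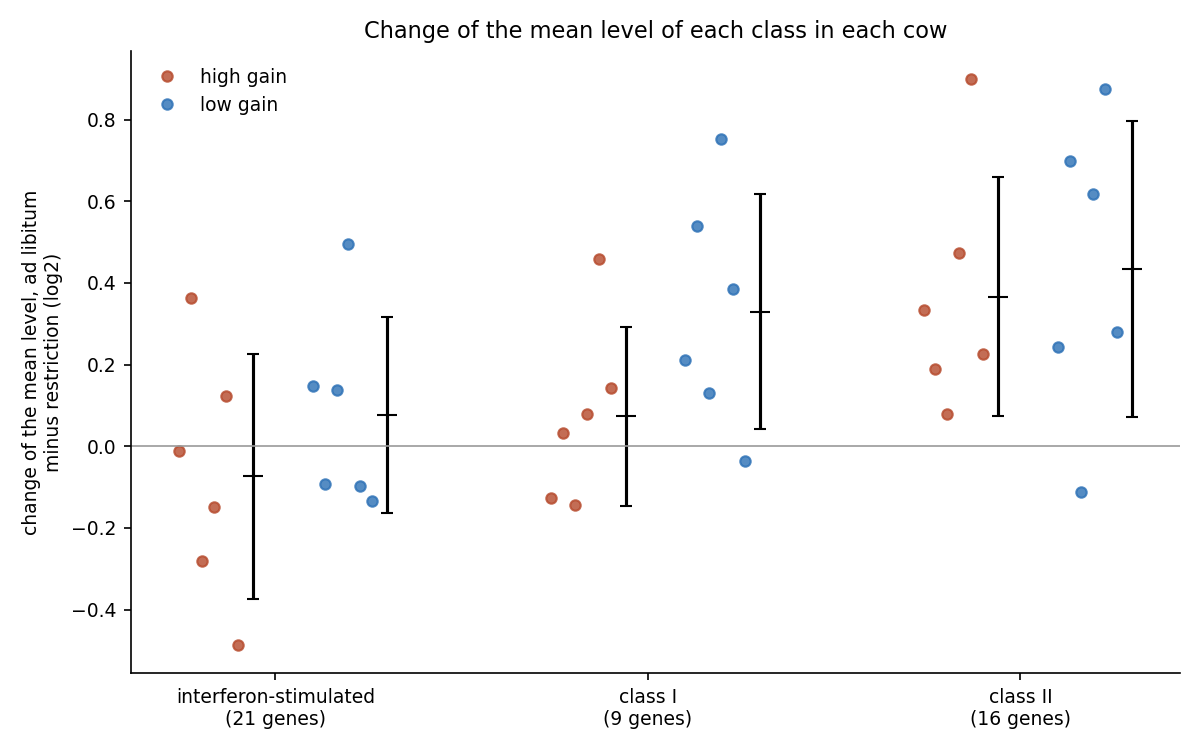
Change of the mean level of each class from restriction to ad libitum feeding (log2, y axis) in each cow, red for high gain and blue for low gain, with the mean and SD of 6 cows in black. Class II means of centred levels lie above 0 in 11 of 12 cows, and interferon-stimulated means lie on both sides of 0.

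Other genes of both pathways were counted from listed members. Of 44 measured genes of interferon production, signalling and response, 4 rose (9.09%) and 6 fell (13.6%) in high gain cows, beside 18.8% and 16.5% of all clusters, and 10 rose (22.7%) and 1 fell (2.27%) in low gain cows, beside 18.6% and 13.1%. IRF8, a transcription factor of macrophages and dendritic cells, rose by 0.96 ± 0.12 (SE, limma adjusted p = 0.000698) and 0.74 ± 0.15 (SE, limma adjusted p = 0.00657), without overlap of the groups. SOCS1, a feedback inhibitor of JAK kinases, rose by 0.66 (limma adjusted p = 0.0477) and 1.03 (limma adjusted p = 0.00109). CXCL10, a chemokine induced by interferon gamma, rose by 0.86 ± 0.12 in low gain cows (limma adjusted p = 0.00108), and its difference in high gain cows was 1.22 ± 0.43 (limma adjusted p = 0.0521). TRIM25, the ubiquitin ligase that activates RIG-I, fell by -1.18 ± 0.14 in high gain cows (limma adjusted p = 0.000483), and its difference in low gain cows was -0.27 (limma adjusted p = 0.136). PARP12, an interferon-induced ADP-ribosyltransferase, fell by -0.83 and -0.45 (limma adjusted p = 0.00406 and 0.0238).

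Of 24 further genes of antigen presentation, 3 rose (12.5%) and 2 fell (8.33%) in high gain cows, and 9 rose (37.5%) and 1 fell (4.17%) in low gain cows, beside the same shares of all clusters. LNPEP, an aminopeptidase used in cross-presentation that is also the insulin-regulated aminopeptidase of adipocytes, rose by 1.83 ± 0.18 (limma adjusted p = 0.000233) and 1.26 ± 0.14 (limma adjusted p = 0.000527). SPPL2A, the protease that clears the last fragment of CD74, rose by 0.60 ± 0.10 (limma adjusted p = 0.00239) and 1.02 ± 0.13 (limma adjusted p = 0.000753). PSME1, a proteasome activator subunit, rose by 0.74 in low gain cows (limma adjusted p = 0.00284), with 0.41 in high gain cows (limma adjusted p = 0.112). CANX, the chaperone calnexin, was called higher in high gain cows (0.71, limma adjusted p = 0.00275) but not under the brightness-dependent scaling (0.18, limma adjusted p = 0.306).

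The second question was whether the gain groups differed at either biopsy. None of the 46 genes was called at restriction or at ad libitum feeding, and none of the 24997 clusters was (0.00%; smallest adjusted p 0.0651 and 0.170, limma). At an unadjusted p under 0.05 there were 6 and 4 of the genes, against 9.23% and 7.25% of all clusters. At restriction, MX1 ranged from 1.44 to 2.73 (median 2.11) in high gain cows and from 0.47 to 1.87 (median 1.21) in low gain cows. The difference was 0.96 ± 0.25 (SE, 95% interval 0.42 to 1.50, limma adjusted p = 0.428), and at ad libitum feeding it was 0.64 (limma adjusted p = 0.683). BOLA-DYA did not overlap at restriction (difference 0.35, limma adjusted p = 0.428), as was the case for 0.256% of clusters in that direction. At restriction CMPK2 was higher and BOLA-DQA2 lower in high gain cows (differences 0.65 and -0.91, limma adjusted p = 0.439 and 0.483).

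At ad libitum feeding, TAPBP was lower in every high gain cow than in any low gain cow, which held for 0.236% of clusters in that direction. The difference was -0.66 ± 0.14 (SE, 95% interval -0.95 to -0.37, limma adjusted p = 0.335). ERAP1 followed with -0.58 (limma adjusted p = 0.552) and IFIT3 with 0.27 (limma adjusted p = 0.665). The macrophage markers had a median difference of 0.59 at restriction and 0.41 at ad libitum feeding, higher in high gain cows. None of the 13 was called. At an unadjusted p under 0.05 there were 8 at restriction and 0 at ad libitum feeding, beside 9.23% and 7.25% of all clusters.

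The third question was whether the response to diet differed between the gain groups. None of the 46 genes passed the test of the difference of response, against 5 of 24997 clusters lower (0.0200%) and none higher, and 3 of the genes had an unadjusted p under 0.05, against 9.27% of all clusters. The genes with the smallest p were CMPK2 at -0.74 ± 0.18 (SE, 95% interval -1.12 to -0.36, limma adjusted p = 0.265), TAPBP at -0.72 ± 0.19 (SE, limma adjusted p = 0.287), BOLA-DYA at -0.39 (limma adjusted p = 0.518) and ERAP1 at -0.55 (limma adjusted p = 0.556), each more negative in high gain cows. The 95% intervals of the 46 differences had a median half-width of 0.51 with 6 cows a group. The 7 genes called in high gain cows alone and the 3 called in low gain cows alone are therefore not shown to differ between the groups.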

How the data were processed

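Total RNA of 24 biopsies was hybridised to 1-colour arrays. The deposited values are log2 signals per transcript cluster. To make them, the authors used Affymetrix Expression Console, with normalization for probe GC content, a signal space transformation that stretches fold changes, and RMA; versions are not given in the sources used here, nor is it stated whether all arrays were normalized together. Of 26773 clusters, 1776 with identifiers below the lowest named one were left out, and 24997 were tested. Each array was centred on its median. Moderated, two-sided tests (limma 3.58.1, R 4.3.3) were run on the 12 arrays of a comparison's groups, for the difference of response on all 24 arrays, and p-values were adjusted by the Benjamini-Hochberg method over all clusters. Scripts were tested on simulated data.

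Diet comparisons had the cow as a block, from the animal number in the labels. Deviations of the 2 arrays of a cow correlated at 0.101 to 0.339 (median 0.185) in high gain and 0.029 to 0.294 (median 0.102) in low gain cows, against medians of -0.051 and -0.025 for different cows. Where a gene had several clusters the brightest was to be used, but each of the 46 genes had 1. Arrays carry no read depth, and their number limits the precision. In the diet comparisons and the difference of response, the p-values measure how the change within a cow varies between cows. In the gain comparisons they measure the spread of levels between cows.

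The genes and lists were chosen with earlier results of these data known. Values are given for up to 4 genes of each role with the smallest p in each diet comparison. They are also given for 4 genes in each gain comparison and in the difference of response, and for 3 genes of each pathway list. The exception is SOCS3, which the rule took from the interferon list in low gain cows and which is left without values. Further genes were named after their values were seen. RefSeq tables were used for names and gene order.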

Additional observations from a re-analysis of the deposited data

Results flagged for a closer look

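For the 32 genes named by rule, each of the 4 groups was searched for a cow that stood apart from the other 5, and 7 of 128 gene and group pairs had one; chance gives about 1 in 20 groups. Cow L3 accounted for 4 of them. It had the lowest BOLA-DQA1 level at restriction (1.1, others 4.17 to 5.28) and at ad libitum feeding (0.94, others 5.21 to 7.49), the lowest CD74 level at ad libitum feeding (6.79, others 7.65 to 8.08) and the lowest DHX58 level at restriction (-0.23, others 0.08 to 0.20). At ad libitum feeding, H5 had the highest B2M level among high gain cows (11.05, others 9.93 to 10.35). Among low gain cows at ad libitum feeding, L5 had the highest CMPK2 level (2.46, others 1.94 to 2.07) and L6 the lowest XAF1 level (-0.36, others -0.18 to -0.09).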

How the results depend on the processing

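In high gain cows, the 8 genes called higher became 2 on the deposited scale, 4 under quantile normalization, 4 under the brightness-dependent scaling (chosen after seeing the data), 5 with dim clusters left out, 1 in an unmoderated one-way test on the deposited scale, and 5 to 9 when 1 cow was left out (5 without H4). The 9 called lower became 22 on the deposited scale and 19 in the one-way test. In low gain cows, the 10 called higher became 5 on the deposited scale, 6 under quantile normalization and 4 in the one-way test, and the 3 called lower became 18 on the deposited scale and 15 in the one-way test. The deposited scale carries the shift of the array medians, -0.42 and -0.43 from restriction to ad libitum feeding over all clusters; on it 7.36% of clusters were higher and 53.1% lower in high gain cows, and 6.28% and 54.3% in low gain cows. IFIT2 in high gain cows turned to -0.0798 on the deposited scale and in the one-way test, and B2M under quantile normalization to -0.13 in high gain and -0.0028 in low gain cows. Without pairing by cow, 8 genes were higher and 8 lower in high gain cows, and 8 higher and 4 lower in low gain cows; RSAD2 and BOLA-DQA1 lost a call as given above, as did CD74 in high gain cows (adjusted p = 0.0779) and BOLA-DQB1 in low gain cows. The causes of changed counts other than on the deposited scale were not tested. On leaving out each cow, 11 of 17 calls in high gain and 11 of 13 in low gain cows held every time; those lost with at least 1 cow left out were IFIT2, RSAD2, ERAP1, CD74, BOLA-DOB and BOLA-DRB3 in high gain cows (adjusted p up to 0.0942) and HERC5 and TAP1 in low gain cows (up to 0.0951). No setting gave a call in the gain comparisons or in the difference of response among the 46 genes.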
